A study of Mus musculus with 3 samples.

Results

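The genes described here were the 44 protein-coding mouse genes, out of 22367 in the GENCODE M1 annotation of NCBI37/mm9, that encode cytochrome P450 enzymes of the Cyp1a, Cyp1b, Cyp2a, Cyp2ab, Cyp2d, Cyp2e, Cyp2f, Cyp2g, Cyp2j, Cyp2r, Cyp2s, Cyp2t, Cyp2u, Cyp2w, Cyp4b, Cyp4f, Cyp4v and Cyp4x subfamilies. The rule uses gene symbols and no measured value, and it was set with earlier results of these data known. The binding data came from livers of male wild type C57BL/6 mice, aged 3 months per the sample labels, and consisted of 1 library of chromatin precipitated with an anti-RXRα antibody, 1 library of input chromatin and 1 library of chromatin precipitated with an anti-RARα antibody. Neither the labels nor the methods give a treatment for these livers or say how many mice each library holds. Whole liver was ground before fixation, so binding in hepatocytes and in other liver cells cannot be told apart.

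Cytochromes P450 are heme enzymes of the endoplasmic reticulum that insert an oxygen atom into lipophilic substrates with electrons passed on by P450 oxidoreductase. The liver holds the richest set of them, and the Cyp1 and Cyp2 enzymes are best known for oxidizing drugs, environmental toxicants and steroids, whereas several Cyp2j, Cyp2u and Cyp4 enzymes act on fatty acids and eicosanoids. RXRα is the common partner of many nuclear receptors, among them the retinoic acid receptor RARα, and such dimers recognize pairs of a short hexamer related to AGGTCA. The comparison asked how far both receptors bind near the P450 genes of the subfamilies listed above, which leave out Cyp2b, Cyp2c, Cyp3a, Cyp4a and other P450 families.

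The deposited signals corresponded to 9999939 reads for RXRα and 9999292 for input, nearly equal totals, and the RXRα total is lower than the number of mapped reads in the paper. Read counts and their intervals therefore rest on the deposited tracks, which may have been set to a common depth, and not on all reads sequenced. In these tracks a bin value is the number of extended reads over a bin of 32 bp. A RARα peak is a deposited peak with a score above 20, and the list holds no read counts. The paper states the mapped reads of that library, but the depth behind a single peak cannot be given from the list. An RXRα region is a stretch in which RXRα reached at least 20 times input after scaling, where an input bin below the genome mean was set to that mean of 0.603 per bin. A peak was called co-localized when it overlapped an RXRα region by at least 25% of the narrower interval, and a peak or region was given to every gene whose start lay within 10 kb. Positions are in bp from the gene start along the gene, so that negative positions are upstream. With 1 library per antibody there are no replicates and no test, and the intervals given are 95% intervals for counting error only. Among the hepatocyte genes used to check the tissue, Alb had 11 RARα peaks, Apoa1 had 10, Ttr had 9, Serpina1a had 1 and Hnf4a had 0, and all 5 had an RXRα region. Of the 5 genes of other tissues, Myod1 and Ins2 had neither, Cdx2 and Gfap had a RARα peak and an RXRα region, and Nkx2-5 had an RXRα region. Expression was not analysed here.

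The sequences that carry the main contrasts among near-identical genes are shown first. An upstream element shared by 5 Cyp2d genes lies near -2000 bp in 4 of them and at -4265 bp in Cyp2d37-ps. It was strongly covered by RXRα in all of these 5 but Cyp2d34. Of the window around the Cyp2d9 element, 64.7% also aligned to Cyp2d12 at 80.8% identity, at 5242 bp, downstream of the start. The top bin there held 1 RXRα read against 0 input reads. Each sequence below is 121 bases of NCBI37/mm9 along the gene, and capitals mark any of 4 receptor hexamers or its reverse complement. The words searched were AGGTCA, its variant AGTTCA, the variant GGGTCA with another first base, and the word GGTTCA that combines both changes.
Cyp2d9, chr15:82280693-82280813, plus strand: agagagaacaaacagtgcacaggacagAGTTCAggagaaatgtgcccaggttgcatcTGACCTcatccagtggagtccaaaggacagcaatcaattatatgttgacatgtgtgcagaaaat
Cyp2d11, chr15:82226462-82226582, minus strand: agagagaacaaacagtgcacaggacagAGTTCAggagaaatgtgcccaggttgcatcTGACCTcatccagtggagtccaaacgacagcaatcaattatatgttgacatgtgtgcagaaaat
Cyp2d40, chr15:82596534-82596654, minus strand: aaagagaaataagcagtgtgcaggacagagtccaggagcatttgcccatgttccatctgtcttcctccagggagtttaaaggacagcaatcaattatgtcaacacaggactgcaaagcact
Cyp2d37-ps, chr15:82525134-82525254, minus strand: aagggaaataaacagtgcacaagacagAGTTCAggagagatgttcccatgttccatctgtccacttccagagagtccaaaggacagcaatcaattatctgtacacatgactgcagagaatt
Cyp2d34, chr15:82453369-82453489, minus strand: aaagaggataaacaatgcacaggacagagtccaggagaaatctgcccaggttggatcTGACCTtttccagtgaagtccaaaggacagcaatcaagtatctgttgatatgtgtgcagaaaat

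Reads and unique words of each printed sequence, here and below, were counted over the 201 bp around its middle, with every bin touched. The counts thus run beyond the printed bases. The Cyp2d9 and Cyp2d11 elements were 99.17% identical over 121 aligned bases and carried 145 RXRα reads against 3 input reads and 140 against 6. The Cyp2d40 element, 77.97% identical to that of Cyp2d9, carried 127 against 8, and the Cyp2d37-ps element, 85.71% identical, carried 62 against 6. The Cyp2d34 element was 89.26% identical to that of Cyp2d9 and carried 31 against 8. These reads gave a ratio of 48.3 (16.2 to 237) at Cyp2d9, 23.3 (10.4 to 64.7) at Cyp2d11, 15.9 (7.82 to 37.6) at Cyp2d40, 10.3 (4.49 to 29.2) at Cyp2d37-ps and 3.88 (1.74 to 9.76) at Cyp2d34. The interval of Cyp2d34 lies below those of Cyp2d9 and Cyp2d11 and overlaps those of the other 2 genes. All of the 32-base words of the Cyp2d34 and Cyp2d40 elements occur once in the genome, compared with 44.3% at Cyp2d9 and 57.2% at Cyp2d11, where reads of both copies cannot be told apart everywhere. The order of the elements by reads was not that by hexamers, since Cyp2d40 holds none of the 4 words and Cyp2d34 holds 1.

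**Figure D1:**
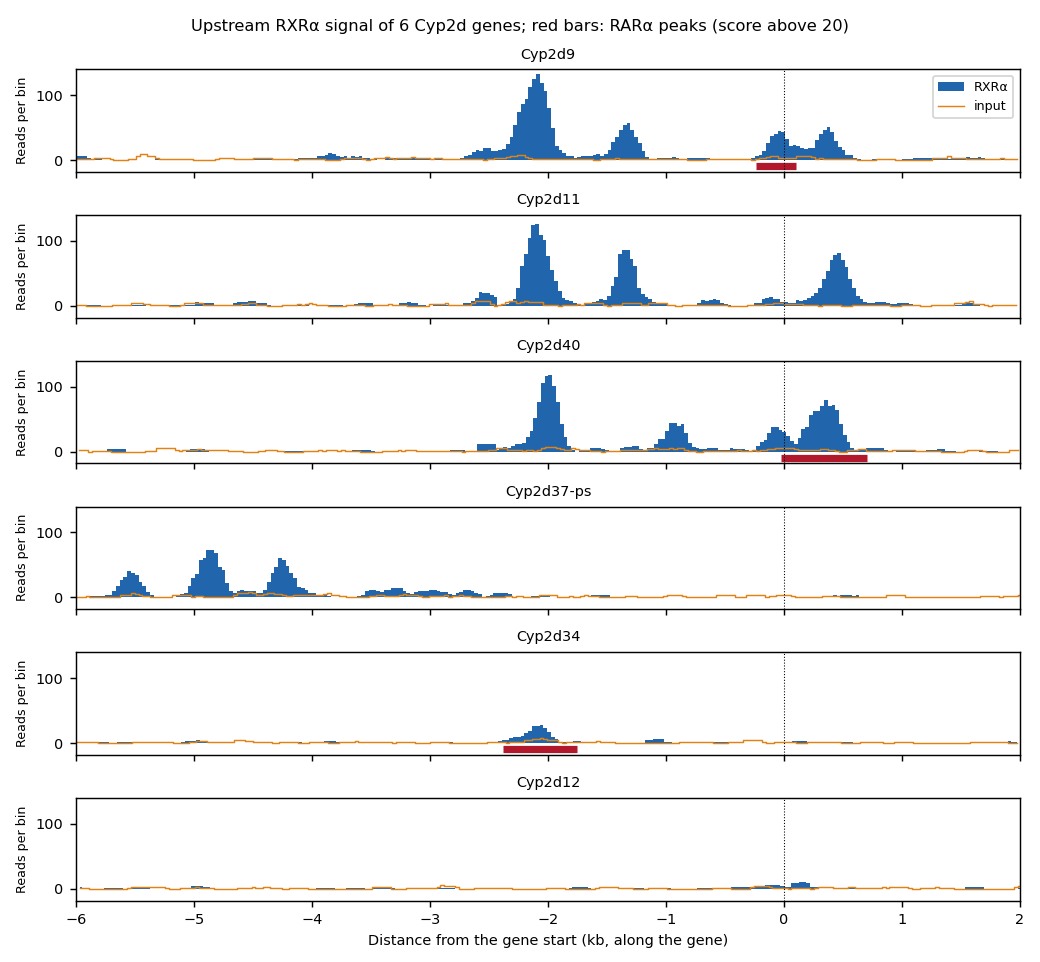
RXRα (blue) and input (orange line) reads per 32 bp bin, on a linear axis, from 6 kb upstream to 2 kb downstream of the start of 6 Cyp2d genes, with RARα peaks of score above 20 as red bars and 1 library per track. The upstream element stands out in Cyp2d9, Cyp2d11 and Cyp2d40 and is low in Cyp2d34, where the RARα peak lies on it.

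The promoters of the 4 Cyp2a genes separated into 2 pairs, and the sequences just upstream of the start are shown because the pairs differed in binding. None of the 4 holds a hexamer in this stretch.
Cyp2a22, chr7:27724406-27724525, minus strand: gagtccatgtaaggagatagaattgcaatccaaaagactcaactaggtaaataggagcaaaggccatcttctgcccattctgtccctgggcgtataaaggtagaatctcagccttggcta
Cyp2a12, chr7:27813989-27814108, plus strand: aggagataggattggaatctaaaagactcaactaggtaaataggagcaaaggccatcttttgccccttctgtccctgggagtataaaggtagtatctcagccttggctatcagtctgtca
Cyp2a4, chr7:27092089-27092208, plus strand: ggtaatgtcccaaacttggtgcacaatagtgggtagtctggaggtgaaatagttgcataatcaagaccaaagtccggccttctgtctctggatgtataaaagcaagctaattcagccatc
Cyp2a5, chr7:27620204-27620323, plus strand: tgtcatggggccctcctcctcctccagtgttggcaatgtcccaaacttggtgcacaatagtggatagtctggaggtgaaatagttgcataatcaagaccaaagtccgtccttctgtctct

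Cyp2a22 and Cyp2a12 were 93.58% identical over 109 aligned bases. The 201 bp around the middle of the stretch, which run past the gene start, carried 78 RXRα reads against 3 input reads in Cyp2a22 and 97 against 7 in Cyp2a12. Cyp2a4 and Cyp2a5 were 96.63% identical over 89 aligned bases, and the same window carried 3 against 2 in Cyp2a4 and 17 against 5 in Cyp2a5. The ratio was 26.0 (8.57 to 129) at Cyp2a22, 13.9 (6.47 to 35.4) at Cyp2a12, 3.40 (1.20 to 11.8) at Cyp2a5 and 1.5 (0.172 to 18.0) at Cyp2a4. Between the pairs, identity ran from 64.84% to 66.36%. The Cyp2a22 and Cyp2a12 promoters were thus the ones with high RXRα coverage, although the intervals of the low pair are wide and overlap those of the high pair. The share of words that occur once in the genome, as given for the Cyp2d elements, also differed between the pairs. It was 86.57% at Cyp2a22 and 91.54% at Cyp2a12, compared with 62.69% at Cyp2a4 and 56.22% at Cyp2a5. The part of this in the contrast was not tested.

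The strongest RXRα sites of 4 genes outside the clusters of near-identical copies are shown next, because the results for these genes turn on them. They lie at -2634 bp in Cyp1a2, at -9295 bp in Cyp2u1, at 6805 bp in Cyp2w1 and at -218 bp in Cyp2r1.
Cyp1a2, chr9:57534036-57534156, minus strand: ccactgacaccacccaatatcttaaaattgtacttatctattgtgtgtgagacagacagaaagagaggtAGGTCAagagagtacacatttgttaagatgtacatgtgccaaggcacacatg
Cyp2u1, chr3:131015380-131015500, minus strand: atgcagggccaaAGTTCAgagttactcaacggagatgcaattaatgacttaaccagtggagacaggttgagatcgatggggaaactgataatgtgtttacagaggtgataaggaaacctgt
Cyp2w1, chr5:139835316-139835436, plus strand: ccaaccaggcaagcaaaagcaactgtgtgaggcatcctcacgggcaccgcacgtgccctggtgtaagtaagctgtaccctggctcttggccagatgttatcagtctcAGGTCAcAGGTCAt
Cyp2r1, chr7:121706644-121706764, minus strand: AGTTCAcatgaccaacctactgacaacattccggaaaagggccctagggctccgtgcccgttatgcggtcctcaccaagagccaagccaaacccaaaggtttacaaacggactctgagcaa

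Counted in the same way over 201 bp, the Cyp1a2 element carried 89 RXRα reads against 2 input reads and the Cyp2u1 element 126 against 2. The Cyp2w1 element carried 106 against 2 and the Cyp2r1 element 43 against 1. The Cyp2w1 element ends in AGGTCAcAGGTCA, a direct repeat with 1 base between the copies (DR1) at chr5:139835423-139835435 on the plus strand. It was 1 of 3 exact direct repeats in the 74 windows of 201 bp around the RXRα regions of the 44 genes.

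Of the 44 genes, 23 (52.3%) had a RARα peak, compared with 52.2% of all protein-coding genes. An RXRα region was present at 27 (61.4%), compared with 39.8%. Co-localized peaks were present at 17 (38.6%), compared with 23.5%. At these cut offs the 44 P450 genes were thus near the background for RARα and above it for RXRα and for co-localization. Their windows also held more input, with a median of 116.5 reads compared with 81 over all genes. The part of this in the difference was not tested. Both kinds of binding were found at 21 genes, an RXRα region without a RARα peak at 6 (Cyp1a1, Cyp2a4, Cyp2a5, Cyp2d37-ps, Cyp2g1 and Cyp2j9), a RARα peak without an RXRα region at 2 (Cyp2d34 and Cyp2t4), and neither at 15. Over all genes these shares were 32.6% for both, 7.19% for RXRα alone, 19.6% for RARα alone and 40.6% for neither, compared with 47.7%, 13.6%, 4.55% and 34.1% of the 44. The highest RXRα ratio within 10 kb had a median of 38.2 over the 44 genes and 14.9 over all genes, and the ratio of RXRα over input reads in the whole window had a median of 1.90 and 1.09.

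**Figure D2:**
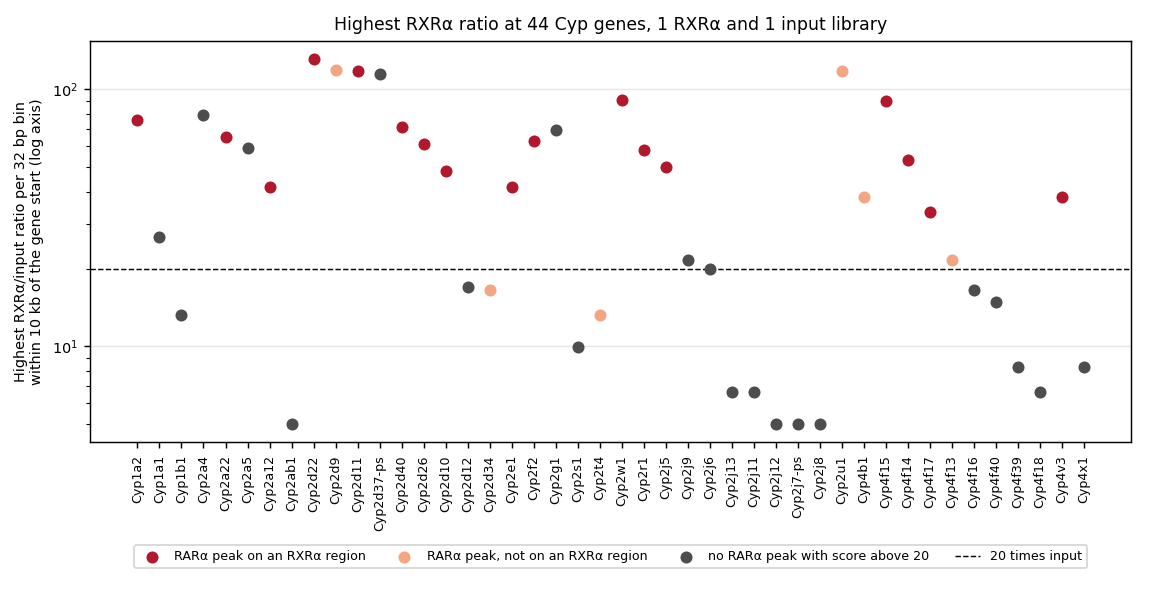
Highest ratio of scaled RXRα over input in any 32 bp bin within 10 kb of the gene start (log axis) for each of the 44 genes, coloured by RARα peak, with the cut off of 20 times input as a dashed line. Cyp2d22 is highest at 131, and 17 genes lie below the line, among them most Cyp2j genes.

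The neighbouring P450 clusters differed from these genes in the pairing of the receptors. An RXRα region was found at 14 of 15 Cyp2c genes, at 12 of 14 Cyp3a and Cyp2b genes and at 6 of 6 Cyp4a genes, but a RARα peak only at 4, 3 and 1 of them, and a co-localized peak at 3, 2 and 1. RARα was hence below its background of 52.2% in each of these clusters and near it at the 44 genes. The genes of a cluster share windows and sequence, and these shares are given without a test.

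**Figure D3:**
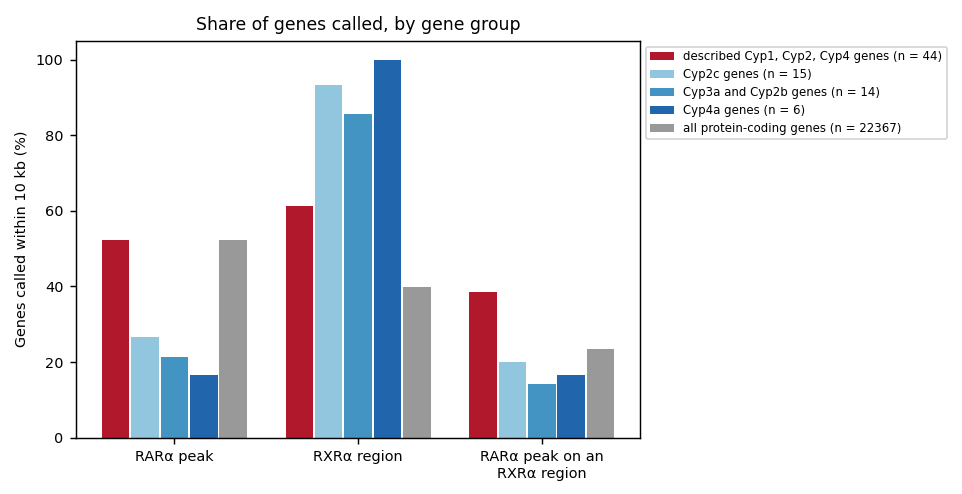
Share of genes (percent, bars from 0) with a RARα peak, an RXRα region and a RARα peak on an RXRα region within 10 kb of the start, for the 44 genes, 3 other P450 groups and all 22367 protein-coding genes. RXRα shares of the other P450 groups are at least 85.7% while their RARα shares run from 16.7% to 26.7%.

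The genes lay in a few loci that differed in density. The Cyp2d locus on chromosome 15 (82190958 to 82634675, 444 kb with 9 of the genes) held 46 RXRα regions, which is 10.4 per 100 kb, compared with 1.59 per 100 kb in the genome. The chromosome 7 locus from Cyp2s1 to Cyp2t4 (1376 kb with 8 of the genes) held 58 regions and the chromosome 17 Cyp4f locus (499 kb with 7) held 21, both 4.21 per 100 kb. The Cyp2j locus on chromosome 4 (657 kb with 8) held 4 regions, which is 0.609 per 100 kb, and its reads, 2529 for RXRα and 2580 for input, gave a ratio of 0.980. The Cyp2d locus was thus the densest of the 4 and the Cyp2j locus fell below the genome. These densities cover each whole span, including sequence outside the windows around the gene starts. Counting a shared region at each gene, the windows held 25 regions for Cyp2d, 7 for Cyp4f and 3 for Cyp2j. In the chromosome 7 locus they held 12 for Cyp2a, 5 for Cyp2f2, 1 for Cyp2g1 and none for Cyp2s1 and Cyp2t4. The highest ratio of that locus, 199, was above that of any of its 8 genes.

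**Figure D4:**
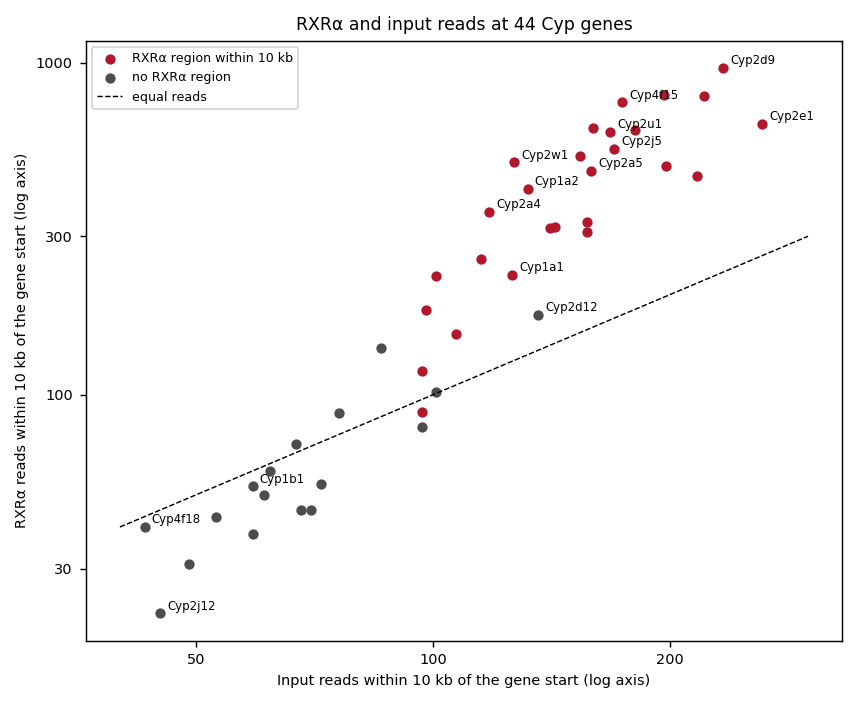
RXRα reads against input reads within 10 kb of the gene start for the 44 genes (both axes log), coloured by whether an RXRα region is present, with a dashed line of equal reads. Genes with a region lie at higher input as well as higher RXRα, with 97 to 262 input reads compared with 43 to 136 for the others.

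Input coverage moved with the calls. The 27 genes with an RXRα region had a median of 157 input reads in the window and the 17 without had 67, and the part of this in the result was not tested. Across the 44 genes the Spearman correlation of RXRα and input reads was 0.95, compared with 0.83 over all genes, and the windows of neighbouring genes overlap. The correlation of the read ratio with the share of unique 32-base words was -0.06. In the windows, bins made only of unique words held a mean of 2.79 RXRα and 1.01 input reads, and the 142 bins made only of repeated words held 0.563 and 0.542.

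Among the Cyp1 genes, which are the classical targets of the dioxin receptor Ahr, RXRα was found at Cyp1a1 and Cyp1a2 and RARα only at Cyp1a2. Cyp1a2 (chromosome 9, 57524744 to 57531462, minus strand), an abundant hepatic enzyme that oxidizes caffeine and aromatic amines, had 417 RXRα reads and 132 input reads in its window, a ratio of 3.16 (2.59 to 3.87). Its single RARα peak had its summit at -83 bp with a score of 37 and co-localized with an RXRα region at -74 bp, where the highest bin held 49 reads against 1. The stronger RXRα region at -2554 bp (76 against 1) had no RARα peak of any score over it. Cyp1a2 therefore had a promoter site with both receptors and an upstream site, shown in part above, with RXRα alone.

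Cyp1a1 (57545420 to 57551629, plus strand), which is nearly silent in liver until induced by aromatic ligands, had 230 RXRα reads and 126 input reads. Its 4 RXRα regions, at -9852, -3372, -1084 and 1060 bp, were weak, with ratios from 21.6 to 26.5, and each top bin held 13 to 16 RXRα reads against 0 input reads. The region at -9852 bp of Cyp1a1 is the same as that at -4106 bp of Cyp1a2, since both genes start from the stretch between them. The best RARα peak near Cyp1a1 had a score of 18, just outside the threshold. Cyp1b1, the mainly extrahepatic member that oxidizes oestradiol and polycyclic hydrocarbons, had neither kind of binding and 53 RXRα reads against 59 input reads.

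The enzymes of drugs, small toxicants and steroids had the larger shares of bound genes of the 2 main groups by role. Of 19 genes of the Cyp2a, Cyp2d, Cyp2e, Cyp2f, Cyp2g, Cyp2s, Cyp2t and Cyp2w subfamilies, 13 had a RARα peak, 15 an RXRα region and 10 a co-localized peak. Of the 20 fatty acid and eicosanoid genes of the Cyp2j, Cyp2u and Cyp4 subfamilies, 8, 9 and 5 did. The drug and steroid genes were above the shares of all genes (52.2%, 39.8% and 23.5%), at 68.4%, 78.9% and 52.6%. The fatty acid genes were below it for RARα and closer to it for the others, with RXRα at 45.0%. The 20 fatty acid genes include the 8 Cyp2j genes of 1 locus, where 1, 2 and 1 were called. The 19 drug and steroid genes include the 9 Cyp2d genes of another locus, where 7, 7 and 5 were. The contrast by role was not separated from that between loci.

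Within the Cyp2d family, the counterpart of the human debrisoquine hydroxylase family, 7 of 9 genes had a RARα peak, 7 an RXRα region and 5 a co-localized peak, compared with 52.2%, 39.8% and 23.5% of all genes. Cyp2d22 (chromosome 15, 82200958 to 82210690, minus strand) had the highest ratio of the 44 genes, 131, at 594 bp, from 79 RXRα reads and 0 input reads in the bin. It did not keep this rank with the genome mean input alone, where Cyp2d22 was at 154 and Cyp2j5 at 272, or with input averaged over 1 kb, where Cyp2d22 was at 64.4 and Cyp2a22 at 86.8. It had 6 RARα peaks with scores from 23 to 58, and 4 of them co-localized, at 1655, 775, 435 and -370 bp. The peak at -370 bp did so only through a region 1 bin wide (14 against 0). Over the peak at 775 bp the mean RXRα signal was 34.4 times input, from 69 reads against 2, the largest enrichment at any RARα peak near the 44 genes. The sites of both receptors at Cyp2d22 lay mainly in its introns, and the other RARα peaks at 135 bp (score 44) and 9075 bp (score 24) did not co-localize.

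Cyp2d9, a male-enriched testosterone hydroxylase, had the most RXRα reads of the 44 genes, 963 against 234 for input, a ratio of 4.12 (3.56 to 4.77). Its 5 RXRα regions included the upstream element shown above (119 against 1 in the highest bin) and one at -1303 bp (57 against 1). Its 4 RARα peaks, with scores from 28 to 57, lay at -67 bp and from 4963 to 6113 bp, and none co-localized. At the -67 bp peak the RXRα reads were 64 against 9 for input, an enrichment of 6.81. RXRα was thus abundant at Cyp2d9 but mostly at other positions than RARα.

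Cyp2d11 had 793 reads against 221 and 6 RXRα regions, the highest of them by ratio at 452 bp (71 against 0 in the top bin). Its upstream element, shown above, held more RXRα reads in a bin, with 126 against 6 at -2093 bp. The only RARα peak of Cyp2d11, at -7683 bp with a score of 25, co-localized with a region at -7724 bp. The same peak lies at 5489 bp of Cyp2d10. Cyp2d10 had in addition a peak with a score of 98 at -11 bp, the highest of the Cyp2d genes, where RXRα was 52 reads against 10 and no region was called. Cyp2d10 and Cyp2d11 therefore shared their co-localized site, which lies between them.

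Cyp2d26 had 799 reads against 197 and both of its RARα peaks co-localized, at -210 bp (score 32, 170 reads against 21) and at -1920 bp (score 38, 271 against 16). The 201 bp window around its RXRα region at 3107 bp (37 against 0) holds the second direct repeat found, GGTTCAAGTTCA at chr15:82621630-82621641 on the minus strand, with no base between the copies (DR0), which lies across the edge of the region and mostly outside it. Cyp2d40 had 1 RARα peak, at 338 bp with a score of 23, which co-localized with a region at 389 bp (43 against 0 in the top bin). Cyp2d37-ps, whose symbol marks a pseudogene although the annotation lists it as protein-coding, had regions at -4207 and -4863 bp (69 against 0) and a best RARα score of 20, which does not exceed the threshold. Cyp2d34 had a RARα peak with a score of 28 on its weak copy of the upstream element and no RXRα region. Cyp2d12 had neither, with 174 reads against 136.

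A second aligned element lay shortly downstream of the start of the Cyp2d genes. Aligned to the 201 bp around 346 bp of Cyp2d9 (46 RXRα reads against 1 in the top bin), Cyp2d11 was 99.0% identical and reached 78 against 1, and Cyp2d40 was 70.3% identical and reached 64 against 1. Cyp2d10 (80.8% identical) reached 14 against 2, Cyp2d12 (84.6%) 9 against 1 and Cyp2d34 (79.1%) 2 against 1. As at the upstream element, the order of the genes by RXRα was not their order by identity to Cyp2d9. In Cyp2d12 99.5% of the 32-base words of this window were unique, compared with 24.4% in Cyp2d11.

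All 4 Cyp2a genes had an RXRα region and 2 had a RARα peak. Cyp2a22 had its peak at -110 bp (score 25), with 88 RXRα reads against 4 and an enrichment of 22.05, and it co-localized with the region at 5 bp. Cyp2a12, a steroid hydroxylase, had its peak at 1126 bp (score 34), co-localized with the region at 1107 bp (25 against 0). Its promoter signal at -141 bp, with more RXRα reads but a lower ratio (77 against 2), lay under a RARα peak with a score of 19, just outside the threshold. The pair with bound promoters was thus also the pair with RARα.

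Cyp2a4, a testosterone hydroxylase, and Cyp2a5, the coumarin hydroxylase, had no RARα peak of any score within 10 kb. Cyp2a4 had 355 RXRα reads against 118 and 5 regions, and Cyp2a5 had 473 against 159 and 3 regions. Of the 5 Cyp2a4 sites, 3 aligned to a Cyp2a5 region, at -2368, 6752 and 8192 bp of Cyp2a4, with identities of 99.0%, 95.5% and 98.5%. At 8192 bp the top bins held 48 against 0 in Cyp2a4 and 84 against 2 in the aligned Cyp2a5 window. Only 38.9% of the 32-base words in the Cyp2a4 window and 36.4% in the Cyp2a5 window occur once in the genome, the lowest shares of the 44 genes, so the reads of both genes cannot be told apart over much of these windows. The other 2 Cyp2a4 sites had no region at their copy in Cyp2a5. At -3520 bp Cyp2a4 held 30 against 0 and the copy, 97.0% identical and 60.7% unique, held 10 against 4. At 1952 bp it held 22 against 0 and the copy, 99.5% identical with no unique word, held 15 against 1.

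Cyp2e1 (chromosome 7, 147949638 to 147960874, plus strand), which oxidizes ethanol, acetone and paracetamol, had the most RARα peaks of the 44 genes. Its 12 peaks within 10 kb had scores from 30 to 143, and 9 of the 11 gaps between them were exactly 10 bp. Over the whole gene, including its end beyond 10 kb, 14 RARα peaks covered 95.4%. At the 12 peaks RXRα enrichment ran from 0.367 to 4.05 with a median of 2.18. At the highest-scoring peak, at 142 bp, RXRα was 69 reads against 17, and no region was called there. Over the whole gene RXRα was 427 reads against 166, a ratio of 2.57, compared with 2.49 in the whole window. RARα peaks therefore covered a gene body in which RXRα was above input but reached the cut off of 20 times input at only 1 position within 10 kb of the start.

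Of the 5 RXRα regions at Cyp2e1, 4 lay upstream, at -9014 bp (25 against 0 in the top bin), -6870 bp (25 against 0), -6182 bp (20 against 0) and -2870 bp (43 against 2), none with a RARα peak of any score. Another region, 1 bin wide at 5194 bp (14 against 0), made the long peak at 5017 bp co-localized. Cyp2e1 also had 262 input reads, the most of the 44 genes, and 653 RXRα reads. The RARα list holds no read counts for its peaks, and no RARα input was used here.

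Cyp2f2 (chromosome 7, 27904928 to 27918679, plus strand), which activates naphthalene in lung and liver, showed the receptors together. It had 636 RXRα reads against 160 and 8 RARα peaks with scores from 21 to 50, of which 4 co-localized. At 102 bp (score 50) RXRα was 59 reads against 3, and at 4597 bp (score 43) it was 150 against 8, an enrichment of 19.8 and 19.3. The other co-localized peaks, at 9187 and 9477 bp (both score 21), flanked the region at 9296 bp. RARα peaks covered 26.9% of Cyp2f2, in separate stretches, compared with the nearly unbroken cover of Cyp2e1.

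Cyp2w1 (chromosome 5, 139828571 to 139832987, plus strand), known from fetal gut and colon tumours, had 501 RXRα reads against 127. Its RARα peaks at 6294 bp (score 39) and -7456 bp (score 71) co-localized, and those at -8296 and 2814 bp did not. Both upstream peaks lie within the neighbouring gene Cox19. Its strongest RXRα region, at 6773 bp (91 against 1), holds the DR1 shown above and lay under a RARα peak with a score of 20, which does not exceed the threshold. Of the remaining genes of this group, Cyp2g1, an enzyme of the olfactory mucosa, had 1 RXRα region at -7690 bp (42 against 0) and a best RARα score of 19. Cyp2t4 had only a RARα peak that lies in the gene Egln2, and Cyp2s1, an enzyme of extrahepatic epithelia, had neither and 50 reads against 61.

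Cyp2r1, the main microsomal enzyme for the first hydroxylation of vitamin D, had a co-localized promoter site. Its RARα summit lay at -309 bp with a score of 32, and its RXRα region at -186 bp held 35 reads against 0 in the top bin. In its whole window RXRα was 180 reads against 98, a ratio of 1.84 (1.43 to 2.37), and a second region near the start, at -714 bp, held 21 against 1. Both RXRα regions of Cyp2r1 thus lay within 1 kb of its start.

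Cyp4f15 (chromosome 17, 32822572 to 32840297, plus strand), a relative of the leukotriene hydroxylases, had 759 RXRα reads against 174, at 4.36 (3.69 to 5.17) the highest ratio of the 44 genes within 10 kb, while with 5 kb on each side it was 5.14 and that of Cyp2d9 5.46. Its RARα peaks at 53 bp (score 52, 112 reads against 8) and 5653 bp (score 34, 176 against 14) co-localized, and the one at -5037 bp did not. Between them, RXRα regions at 1316 bp (54 against 0) and 3124 bp (40 against 1) had at most a RARα peak with a score of 13. The Cyp4f15 start and its intron thus held both receptors in separate sites.

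Cyp4f14, a leukotriene hydroxylase, had 321 RXRα reads against 143 and a co-localized peak at -252 bp (score 56, 86 reads against 8). Its other RARα peak, at -7952 bp within Cyp4f13 (score 31, 108 reads against 21), did not co-localize. Cyp4f17 had 317 against 141 and a co-localized peak at 98 bp (score 63, 25 reads against 1). Cyp4f13 had 152 against 107, RARα peaks at 72 bp (score 48) and -4218 bp (score 52), and a weak region at 4347 bp (13 against 0) that they did not touch. The other 4 Cyp4f genes, Cyp4f16, Cyp4f18, Cyp4f39 and Cyp4f40, had neither kind of binding. Cyp4f18, on chromosome 8 and known from neutrophils, had 40 reads against 43.

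Cyp4v3, counterpart of the human CYP4V2 fatty acid hydroxylase, had 488 RXRα reads against 198 and a pair of co-localized promoter peaks at 80 bp (score 75, 53 reads against 6) and -425 bp (score 28, 57 against 4). The peak at 80 bp co-localized only through a region 1 bin wide at -102 bp (14 against 0). The other RARα peaks of Cyp4v3, at 3710 bp (score 25) and at -8970 bp within the gene Fam149a (score 21), were not on an RXRα region. Cyp4b1, an enzyme best known from lung, had a RARα peak at -3 bp (score 26) with only 4 RXRα reads against 0, and an RXRα region at 4082 bp (23 against 0). Cyp4x1, known from brain, had neither. Among these 3 genes only the Cyp4v3 promoter held both receptors at the same position.

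Cyp2u1 (chromosome 3, 130993409 to 131006145, minus strand), a long-chain fatty acid hydroxylase, had 620 RXRα reads against 168, a ratio of 3.69 (3.11 to 4.40). Its 3 RXRα regions all lay upstream, at -9327 bp (118 against 1), -7679 bp (62 against 0) and -4815 bp (62 against 1), and none had a RARα peak of any score. Its RARα peaks lay at 40 bp (score 28) and 3100 bp (score 27), with 22 RXRα reads against 6 and 21 against 7. RXRα and RARα were thus apart at Cyp2u1, with RARα at the start and in the gene and RXRα far upstream.

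Of the 8 Cyp2j genes, 6 had neither kind of binding. Cyp2j5, an arachidonic acid epoxygenase of kidney and liver, was the exception, with 551 RXRα reads against 170, a ratio of 3.24 (2.72 to 3.87). Its RARα peak at 10 bp (score 53, 142 reads against 11) co-localized with a region at -3 bp (97 against 4 in the top bin), and a second region lay at -1267 bp (50 against 1). Cyp2j9 had 89 reads against 97 and a region of 1 bin at 7757 bp (13 against 0). The third direct repeat, AGGTCAAGGTCA at chr4:96250531-96250542 on the plus strand (DR0), lies in the 201 bp window around this region, just past its end. Cyp2j6 came just under the limits, with 12 reads against 0, a ratio of 19.9 and a RARα score of 20. Cyp2j7-ps, Cyp2j8, Cyp2j11, Cyp2j12 and Cyp2j13 had window ratios from 0.489 to 0.952. Cyp2ab1, whose role is unknown, had 31 reads against 49 and neither kind of binding.

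In all, 61 distinct RARα peaks and 74 distinct RXRα regions lay within 10 kb of the 44 starts. Of the peaks, 26 (42.6%) co-localized, compared with 33.1% of 18093 peaks near all genes. Only 23 of them (37.7%) lay within 1 kb of the start, compared with 61.95%, and of the regions 18 (24.3%) did, compared with 35.1%. The shares close to the start were thus lower than over all genes for both receptors, and Cyp2e1 and Cyp2f2 alone gave 20 of the peaks. Peak scores were close to those of all genes, with a median of 38 compared with 36. The median highest ratio of the regions was 40.7, compared with 34.0.

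The RXRα regions were mainly outside genes, with 46 outside protein-coding genes, 20 in introns, 4 in coding exons and 4 in UTRs. Of the RARα peaks, 29 had their summit in an intron, 20 outside genes, 10 in a UTR and 2 in a coding exon. No RARα peak of any score lay over 35 of the 74 RXRα regions, and 24 overlapped a peak with a score above 20. These location and overlap counts were not made for the regions and peaks of all genes. They therefore do not show whether the 44 genes differ from others. In 43 regions the highest bin had 0 input reads, so that its ratio rests on the genome mean input, and 12 regions were 1 bin wide. Across the 44 genes the highest RXRα ratio and the highest RARα score had a Spearman correlation of 0.61, over genes that partly share windows.

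The receptor hexamers named above, searched on both strands, were in 64.9% of the 201 bp windows around RXRα regions at these genes, compared with 60.1% of the 15094 windows at all genes. Around RARα summits they were in 44.3%, compared with 31.8%. Exact direct repeats of these hexamers with 0 to 5 bases between the copies were in 4.05% of the RXRα windows, compared with 3.64%, and in 0 of the 61 RARα windows, compared with 0.702%. Such repeats were thus rare at these genes as elsewhere, and the letters searched do not cover degenerate sites. The RARα windows held a median of 3 CpG, compared with 11 at all genes. The promoters, 300 bp around the start, also held 3 compared with 11, and GCGTG, the core word of the Ahr element, was in 29.5% of them, compared with 37.0%.

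The genes of P450 partners were described in the same way. Por, which encodes the oxidoreductase that supplies their electrons, had 975 RXRα reads against 132, a highest ratio of 171 and 2 RARα peaks, both co-localized. The epoxide hydrolase genes Ephx1 (495 against 150) and Ephx2 (516 against 169) and the cytochrome b5 reductase gene Cyb5r3 (457 against 116) each had 1 co-localized peak. Cyb5b and the gene for the microsomal cytochrome b5, listed as Cyb5 in the annotation, had both kinds of binding but no co-localized peak. Of the dioxin receptor genes, Ahr had 1 co-localized peak (score 66), Arnt had a RARα peak (score 73) and a region that did not overlap, and the repressor Ahrr had only a RARα peak (score 32), with 37 reads against 72. Of these 9 partner genes, 9 had a RARα peak, 8 an RXRα region and 5 a co-localized peak, compared with 52.2%, 39.8% and 23.5% of all genes.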

How the data were processed

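Chromatin of mouse liver was sequenced by the authors after precipitation with anti-RXRα or anti-RARα antibodies, and as input. Per the labels the processing used CASAVA 1.4, Bowtie and MACS on mm9, whereas the methods of the paper give mm10 as the build of the alignment. The track header states mm9, so NCBI37/mm9 was used. The authors deposited a signal for RXRα and input, which is whole-number coverage by extended reads in 32 bp bins, each read covering 5 bins. For RARα the deposited list gives a score and a false discovery rate in percent for each of 143280 peaks. The scale of the score is not given in the sources used here, and 32946 peaks exceeded 20. The list holds no read counts, so the depth behind a RARα peak is not given here. Both tracks total nearly the same number of reads, fewer than the paper states for RXRα, and may have been set to a common depth.

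The score threshold of 20, the 10 kb distance, the 20-fold cut off and the 25% overlap follow the paper's methods. RXRα was scaled by 0.999935 to the input total, kept bins within 200 bp were joined, and 42117 regions resulted. Read ratios have exact conditional binomial 95% intervals, which cover counting error only. The region calling was run on simulated data with planted regions well above or well below the cut off. This checks the code and cannot show how reliable weak calls near the cut off are. Direct repeats, hexamers and 32-base words were read from the NCBI37 sequence, and RefSeq promoter sequences of another build were not used. The 44 genes, the partner and marker lists and the groups by role were chosen with earlier results of these data known. The genes chosen for fuller description were every gene with a RARα peak, the 10 genes with the highest RXRα ratio and a fixed list. The fixed genes were Cyp1a1, Cyp1a2, Cyp1b1, Cyp2e1, Cyp2f2, Cyp2r1, Cyp2s1, Cyp2u1 and Cyp4v3. Not every value of each gene is printed. No test was made, because each antibody has 1 library. The alternatives were other distances, scores, cut offs, inputs, joining distances, overlaps and gene starts. Python 3.11.15, numpy 2.4.6, pandas 2.3.3, scipy 1.17.1, pysam 0.24.0, biopython 1.88, numba 0.67.0 and matplotlib 3.10.9 were used.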

Additional observations from a re-analysis of the deposited data

How the results depend on the processing

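The count of genes with an RXRα region was 15 of 44 (34.1%) within 1 kb of the gene start, compared with 27 within 10 kb, while 21.6% of all genes had one within 1 kb. With a RARα score above 50, the count of genes with a RARα peak was 11, while 24.6% of all genes had one, and that of genes with a co-localized peak was 8, while 10.9% of all genes had one. Under the other alternatives the counts stayed within 1.5 times the reported ones, at 16 to 31 genes for RARα, 24 to 40 for RXRα and 12 to 23 for co-localization. The shares of all genes moved as well. At 5 times input, 90.9% of the 44 and 86.7% of all genes had an RXRα region, and 52.3% and 47.7% a co-localized peak. At 30 times input these were 54.5% and 27.9%, and 34.1% and 14.9%. The RXRα excess thus nearly vanished at the lowest cut off. With a RARα score above 30, 36.4% and 42.1% had a RARα peak, and without a score threshold 70.5% and 67.3%. Of the 28 genes chosen for fuller description, the ratio of RXRα over input reads moved beyond its interval in 27 with a window of 1 kb and was higher in 21. The highest RXRα ratio was higher in 25 of 28 when the genome mean input alone was used, and in 2 when the input was averaged over 1 kb. The first of these changes can only keep or raise the ratio, since the input used otherwise is never below that mean. Exact ratios near 20, as at Cyp2j6, and the 43 regions with 0 input in the top bin depend on the mean input at this depth. No paired analysis was possible because there was 1 library per antibody. No replicate could be left out for the same reason.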
